A study of Mus musculus with 6 samples.

Results

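A set of 9 genes of retinoic acid synthesis, binding and response were followed in mouse advanced pluripotent stem cells (ASCs) with and without *Bdh2*. They were picked by name for their role in the pathway: *Rdh10* and *Aldh1a2* make retinoic acid, *Dhrs3* turns its precursor back to retinol, *Cyp26a1* breaks it down, *Crabp1* and *Crabp2* bind it in the cytoplasm, and *Rara*, *Rarb* and *Rarg* encode its nuclear receptors. All 9 members were among the 54715 genes of the deposited count table, and 8 of the 9 were among the 16758 genes with enough counts for a test. *Rarb* was the member left out.

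ASCs are a mouse pluripotent line, labelled as advanced embryonic stem cells, here derived from a 129/sv mother and a GOF/GFP father, so that both genotypes carry the same strain background. Per the study's methods the cells grew in N2B27 medium, which holds the N2 and B27 supplements, with activin A, BMP4, CHIR99021 (an inhibitor of GSK3) and LIF. The retinoid content of this medium is not given in the sources used here. RNA sequencing covered 3 libraries of WT ASCs and 3 libraries of *Bdh2*-/- ASCs. The comparison asks how loss of *Bdh2*, which encodes a short-chain dehydrogenase, changes gene expression in these cells. The knockout was made with Cas9 and paired guides near the start codon, and the study describes 1 clone with a deletion on both alleles that was taken on for further work, so a difference between genotypes cannot be told apart from a difference between lines. The labels do not say whether the 3 libraries of a genotype came from separate cultures, so the p-values measure only the spread between these samples.

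Retinol is oxidised to retinaldehyde by short-chain dehydrogenases such as RDH10, and retinaldehyde is oxidised to retinoic acid by aldehyde dehydrogenases such as ALDH1A2. Retinoic acid enters the nucleus, where receptors paired with RXR proteins sit on response elements made of repeated hexamers and switch from binding corepressors to binding coactivators. In pluripotent cells retinoic acid is a widely used inducer of differentiation, and *Cyp26a1* and *Rarb* are textbook direct targets.

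Response elements of the DR5 kind, a direct repeat of hexamers with 5 bases between them, are shown for the pair of members whose promoter held one, since these are the members whose level is commonly read as a sign of receptor activity. The windows ran from 250 bases before to 50 bases after each RefSeq start (GRCm38.p6). The capitals mark the hexamers (each one of AGGTCA or GGGTCA or AGTTCA or GGTTCA, searched on both strands), and both sequences are written 5′ to 3′ in the direction of the repeat, which is the minus strand of the chromosome in both cases.
Rarb promoter, chr14:16575507-16575535: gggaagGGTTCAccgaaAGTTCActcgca
Cyp26a1 promoter, chr19:37697770-37697798: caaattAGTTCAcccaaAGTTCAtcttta

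The *Rarb* element lay at bases -53 to -37 from the start and in the direction of the gene, and the *Cyp26a1* element lay at -32 to -16 and in the opposite direction. From the first hexamer to the last, the elements were the same at 15 of 17 positions. RefSeq promoters were found for 7 of the 9 members, in 13 windows, and not for *Crabp2* and *Rdh10*. Among all 32851 windows 0.0974% held a DR5 repeat. Repeats with spacers of 2 bases (DR2) or 1 base (DR1) were in 0.268% and 0.222% of all windows and in none of the members' windows. No match overlapped another one in these windows. These are matches of letters and not measured binding.

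Library totals were 18927748 to 24945216 counts in WT ASCs and 24320119 to 28333541 in *Bdh2*-knockout ASCs, and 3 counts were worth 0.106 to 0.158 CPM (counts scaled to library size with the TMM method) in a library. *Bdh2* itself was still counted in the knockout at 5.43 ± 0.484 CPM (SD, n = 3) against 9.42 ± 1.10 in WT ASCs, 57.7% of the WT level (log2 fold change -0.79, SE 0.12, adjusted p = 2.46e-04, by the quasi-likelihood test of edgeR, adjusted over all tested genes after Benjamini and Hochberg). Reads from a transcript with a short deletion still count, so this value does not measure the protein. Pluripotency markers summed to 3620 to 3864 CPM in WT and 4022 to 4092 CPM in knockout libraries, without overlap. Of these markers 4 of 7 tested were higher and none was lower, beside 21.0% higher and 20.8% lower over all tested genes. Transcripts of other cell types differed between libraries: 8 adult hepatocyte markers summed to 398, 237 and 27.8 CPM in WT replicates 1 to 3 and to 21.2, 106 and 10.96 CPM in knockout replicates 1 to 3, and 8 primitive endoderm markers summed to 14.4 to 15.8 CPM in WT and 75.5 to 85.8 CPM in knockout libraries, all 8 of them higher by the test. Neural markers summed to 63.2 to 72.2 CPM in WT and 76.6 to 77.8 CPM in knockout libraries, with 3 of 4 tested higher and none lower, and their part in the members' values was not tested. The sums of mesoderm (117 to 145 against 117 to 137 CPM), fibroblast (26.6 to 32.5 against 21.6 to 27.1 CPM) and visceral endoderm markers (11.03 to 75.1 against 14.8 to 33.3 CPM) overlapped between genotypes. By the test 1 of 6 mesoderm markers was higher and 2 were lower, and 1 of 5 fibroblast markers was lower. Of 5 visceral endoderm markers 2 were higher (*Amn*, *Rhox5*) and 2 lower (*Ttr*, *Apoa1*). Over all tested genes 21.0% were higher and 20.8% lower. In such bulk samples, fewer cells of a type and less RNA per cell cannot be told apart.

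Of the 8 tested members, 3 were higher in *Bdh2*-knockout ASCs (*Rdh10*, *Cyp26a1*, *Rarg*), 1 was lower (*Crabp1*) and 4 did not pass (*Aldh1a2*, *Dhrs3*, *Crabp2*, *Rara*). The threshold was an adjusted p of 0.05 in edgeR's quasi-likelihood test. The share called was 50%, beside 41.7% of all tested genes (21.0% higher and 20.8% lower), so the number of members called was near the background. The genotypes did not overlap in 4 of the 8 tested members, beside 52.4% of all tested genes. The median log2 fold change of the tested members was -0.041, and that of all tested genes was -0.013.

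**Figure D1:**
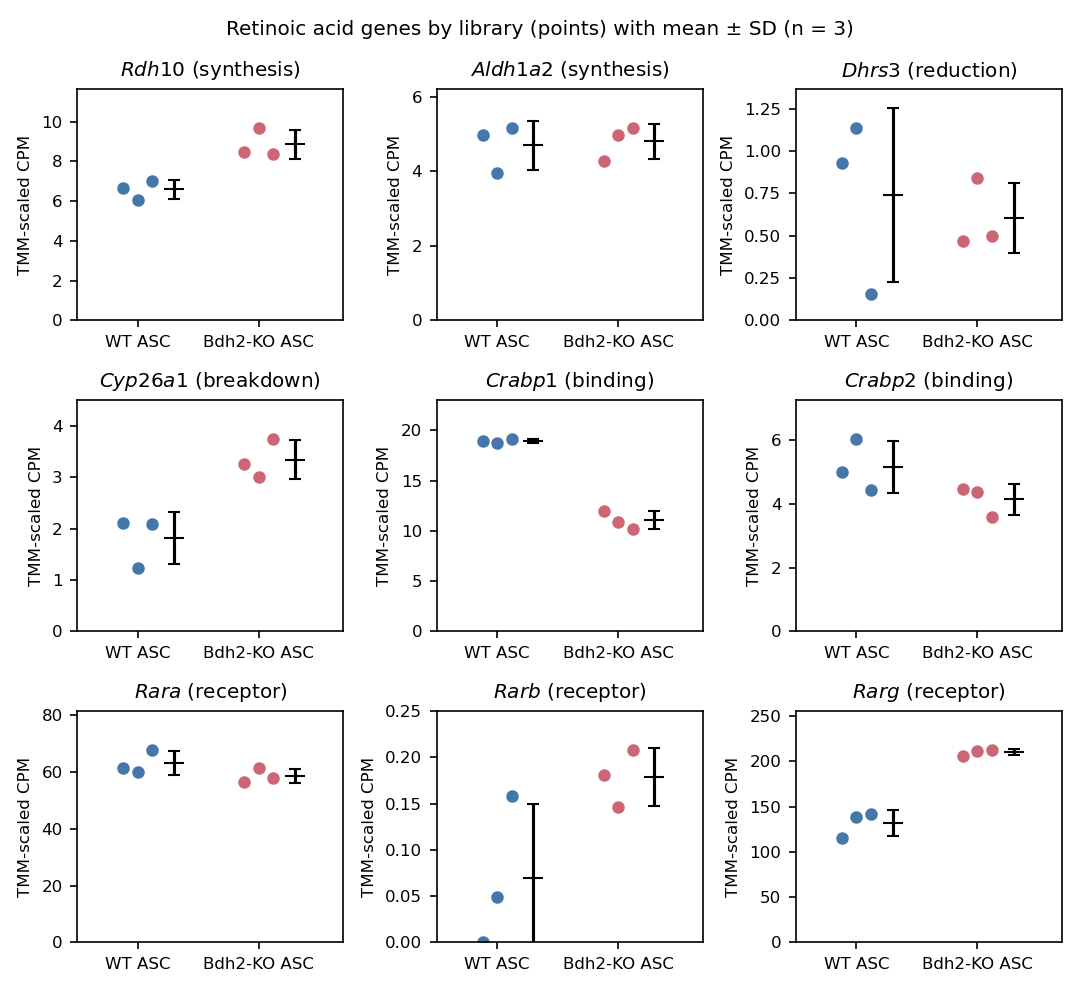
CPM of each member in the 3 WT (blue) and 3 *Bdh2*-knockout (red) libraries, with the mean ± SD in black; each panel has its own axis from 0, and the lower error bar of WT *Rarb* is cut at 0. The genotypes are apart in *Rdh10*, *Cyp26a1*, *Crabp1* and *Rarg*, and overlap in the other panels.

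**Figure D2:**
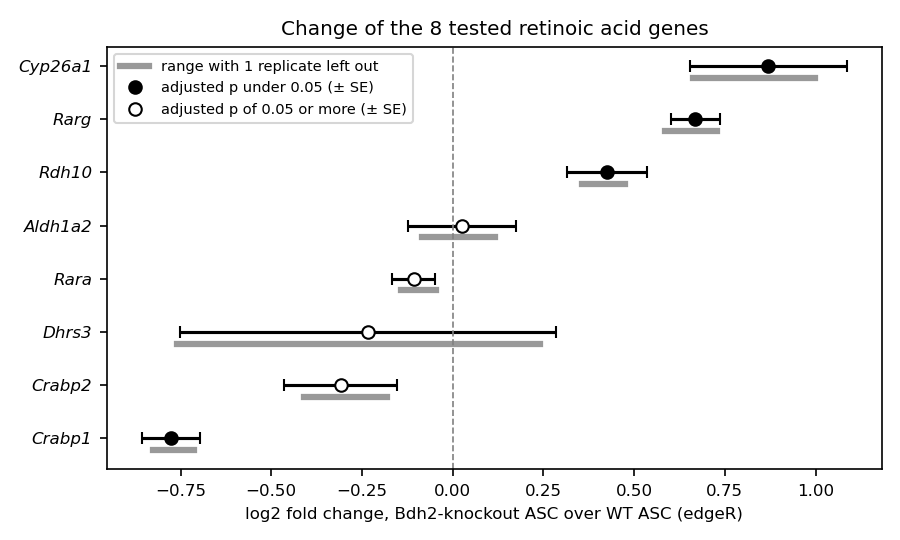
log2 fold change (knockout over WT, x axis) of the 8 tested members with its SE, filled where the adjusted p was under 0.05; grey bars give the range when each library was left out in turn. The 4 filled points and their grey bars stay on 1 side of 0, while those of *Aldh1a2* and *Dhrs3* lie on both sides.

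*Rdh10* encodes the retinol dehydrogenase that makes retinaldehyde in the embryo, the limiting step of retinoic acid synthesis. Its gene lies at chr1:16105774-16133734 on the plus strand (GRCm38, as are all positions of genes given here). It was measured at 6.69, 6.09 and 6.997 CPM in WT replicates 1 to 3 and at 8.48, 9.71 and 8.38 CPM in knockout replicates 1 to 3. All 3 knockout libraries were above all 3 WT libraries. The mean was 6.59 ± 0.463 in WT and 8.86 ± 0.739 CPM in knockout ASCs (SD, n = 3), a 1.34-fold difference (log2 fold change 0.42, SE 0.11, adjusted p = 0.00767 by edgeR).

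*Aldh1a2* encodes the aldehyde dehydrogenase that makes most retinoic acid of the early embryo (chr9:71215789-71296243, plus strand). Its counts were 97, 80 and 131 in the WT libraries and 118, 136 and 124 in the knockout libraries, or 4.99, 3.96 and 5.18 CPM against 4.28, 4.98 and 5.17 CPM. The genotypes overlapped, with WT replicate 2 the lowest library. The log2 fold change was 0.025 (SE 0.15, adjusted p = 0.908 by edgeR), and its sign changed when WT replicate 2 (-0.084) or knockout replicate 3 (-0.015) was left out. So of the pair of enzymes in series, the transcript of the first step was higher in the knockout and a difference in that of the last step was not detected.

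*Dhrs3* encodes the reductase that turns retinaldehyde back to retinol, opposing RDH10, and is itself a known retinoic acid target (chr4:144892827-144928209, plus strand). Counts were low, at 18, 23 and 4 in WT and 13, 23 and 12 in knockout libraries, or 0.926, 1.14 and 0.158 CPM against 0.471, 0.842 and 0.5002 CPM. WT replicate 3 was the lowest library of all 6 and WT replicate 2 the highest, so the WT range enclosed the knockout range. The log2 fold change was -0.23 with an SE of 0.52 (adjusted p = 0.744 by edgeR), and it was 0.24 without WT replicate 2. The 3 libraries with the most *Dhrs3* (WT replicates 1 and 2 and knockout replicate 2) were those with the largest sum of hepatocyte markers, whose part in the *Dhrs3* values was not tested. On the log2 scale the *Dhrs3* to *Rdh10* ratio of levels per length was -3.07 ± 1.65 in WT and -3.41 ± 0.346 in knockout ASCs (SD, n = 3), with overlapping libraries (two-sided exact permutation test, p = 0.9, adjusted p = 0.9 over 5 ratios).

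*Cyp26a1* encodes the cytochrome P450 that inactivates retinoic acid (chr19:37697808-37701528, plus strand), and its promoter held the second element printed above. It was measured at 2.11, 1.24 and 2.10 CPM in WT libraries, from 41, 25 and 53 counts. In knockout libraries it was at 3.26, 3.00 and 3.75 CPM, from 90, 82 and 90 counts. Every knockout library was above every WT library, and WT replicate 2 was the lowest. The mean rose from 1.81 ± 0.4996 to 3.34 ± 0.380 CPM (SD, n = 3), a 1.84-fold difference and the largest of the tested members (log2 fold change 0.87, SE 0.22, adjusted p = 0.00605 by edgeR). Over all tested genes, 8.09% had a larger absolute log2 fold change. The primitive endoderm markers moved with genotype as well, 14.4 to 15.8 CPM against 75.5 to 85.8 CPM in sum, and their part in the *Cyp26a1* value was not tested.

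The 5 genes with a pattern most like *Cyp26a1* over the 6 libraries, by Pearson's r of log2(CPM + 1) among 10937 genes of at least 5 CPM on average, were *Ackr3* (r = 0.996), *Gm10232* (0.995), *Sssca1* (0.993), *Vdac2* (0.992) and *Get4* (0.992). The points of these correlations are the same 6 libraries in 2 genotypes, and the values describe only how alike the patterns were. The log2 fold changes of the 5 genes ran from 0.15 (*Gm10232*) to 0.57 (*Ackr3*), all smaller than that of *Cyp26a1*.

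*Crabp1* and *Crabp2* encode the cellular retinoic acid binding proteins, of which CRABP2 is known to carry retinoic acid to the nuclear receptors. *Crabp1* (chr9:54764748-54773110, plus strand) was measured at 18.9, 18.8 and 19.2 CPM in WT libraries and at 11.999, 10.9 and 10.2 CPM in knockout libraries. The WT libraries were nearly the same and all above the knockout libraries. The mean fell from 18.9 ± 0.215 to 11.04 ± 0.901 CPM (SD, n = 3), 58.3% of the WT level (log2 fold change -0.78, SE 0.080, adjusted p = 9.71e-06 by edgeR). *Crabp1* was the only member of the 8 tested that was lower, and 10.3% of all tested genes had a larger absolute change.

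*Crabp2* (chr3:87948666-87953376, plus strand) was measured at 4.99, 6.04 and 4.43 CPM in WT and 4.46, 4.36 and 3.58 CPM in knockout libraries. WT replicate 3 lay just under knockout replicate 1, so the genotypes overlapped. The log2 fold change of -0.31 (SE 0.16) did not pass (adjusted p = 0.130 by edgeR). Per length, *Crabp1* exceeded *Crabp2* in every library, by 6.24, 5.12 and 7.14 times in WT and by 4.44, 4.13 and 4.70 times in knockout replicates 1 to 3. The ratio was lower in all 3 knockout libraries than in any WT library (log2 ratio 2.61 ± 0.241 against 2.14 ± 0.0932, SD, n = 3). The exact permutation test gave p = 0.1, the smallest that 3 against 3 can give, and an adjusted p of 0.167 over the 5 ratios.

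*Rara*, *Rarb* and *Rarg* encode the alpha, beta and gamma receptors, which bind DNA as partners of RXR. *Rarg* (chr15:102234938-102257517, minus strand) had 2253, 2796 and 3594 counts in WT and 5695, 5762 and 5113 counts in knockout libraries. This was 116, 138 and 142 CPM in WT libraries against 206, 211 and 213 CPM in knockout libraries, with no overlap and with WT replicate 1 the lowest. The mean rose 1.59-fold, from 132 ± 14.1 to 210.2 ± 3.41 CPM (SD, n = 3; log2 fold change 0.67, SE 0.068, adjusted p = 8.24e-06 by edgeR), and 13.7% of all tested genes had a larger absolute change. *Rarg* was the most abundant member and, with 8643 counts in WT and 16570 in knockout libraries together, the one with the deepest count.

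*Rara* (chr11:98927818-98974942, plus strand) was measured at 61.2, 60.0 and 67.9 CPM in WT and at 56.6, 61.3 and 57.9 CPM in knockout libraries. The genotypes overlapped, with knockout replicate 2 above WT replicates 1 and 2. The log2 fold change was -0.11 (SE 0.059, adjusted p = 0.164 by edgeR). When libraries were scaled by their totals without TMM, it was -0.16 and passed (adjusted p = 0.0363). Under that scaling 38.1% of all calls were higher, in place of 50.3%.

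*Rarb* (chr14:16430839-16819156, minus strand), the other textbook target with a DR5 element in its promoter, had 0, 1 and 4 counts in WT and 5, 4 and 5 counts in knockout libraries. This was 0 to 0.158 CPM against 0.147 to 0.208 CPM, near the level of 3 counts, and WT replicate 3 was above knockout replicate 2. It did not reach the count filter, and without the filter its adjusted p was 0.400 by edgeR (unadjusted p = 0.174). Of its exon bases, 38.4% are also covered by genes of the opposite strand (*Top2b* and the antisense gene *Gm48162*). The strand setting of the counting is not given in the sources used here, so reads of *Rarb* and of these genes may not have been told apart.

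Of the summed receptor level per length (FPKM, taken here as CPM divided by the listed gene length), *Rarg* took 66.0%, 70.3% and 68.2% in WT libraries and 78.8%, 77.9% and 79.0% in knockout libraries. *Rara* took 34.0%, 29.7% and 31.8% against 21.1%, 22.1% and 20.9%. Both shares were apart in all libraries, while the *Rarb* share stayed at or under 0.0625% in each of the 6 libraries. The *Rarg* share was 68.1 ± 2.14% in WT and 78.6 ± 0.607% in knockout ASCs (SD, n = 3; exact permutation test, p = 0.1, adjusted p = 0.167, again the smallest p possible before adjustment). Per length, *Rarg* exceeded *Rara* by 1.94 to 2.36 times in WT and by 3.53 to 3.77 times in knockout libraries.

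**Figure D3:**
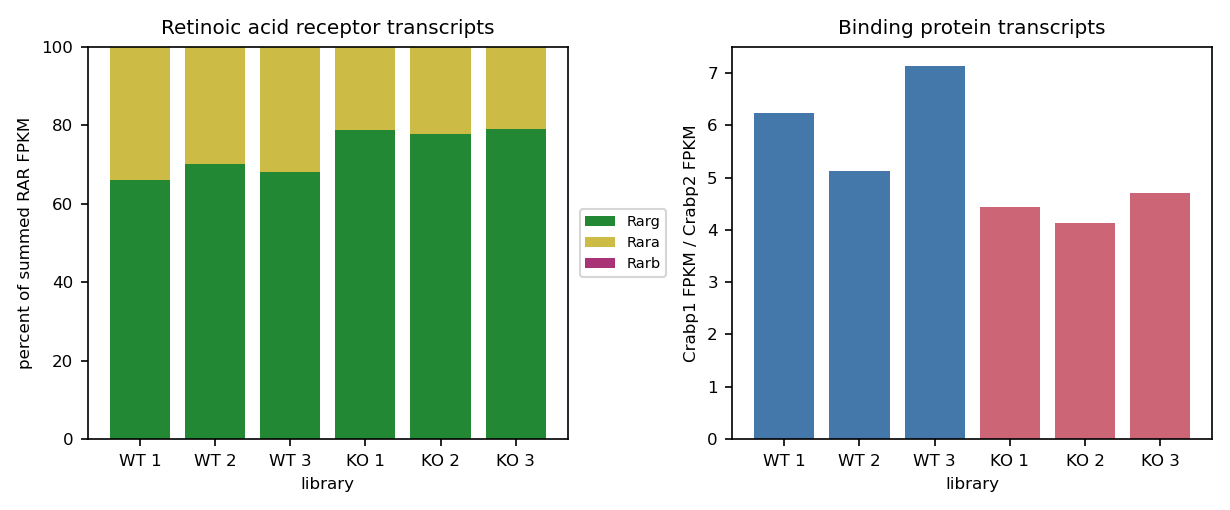
Left, share of each receptor in the summed RAR FPKM (percent) of each library; right, *Crabp1* FPKM over *Crabp2* FPKM of each library (WT blue, knockout red). *Rarg* takes 66.0% to 70.3% in WT and 77.9% to 79.0% in knockout libraries, *Rarb* is too low to be seen, and the *Crabp1* to *Crabp2* ratio is lower in each knockout library than in each WT library.

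Ordered by level per length, WT ASCs had *Rarg* first at 31.0 ± 3.32 FPKM (SD, n = 3), then *Crabp1* at 23.6 ± 0.268 and *Rara* at 14.4 ± 0.973 FPKM. Then came *Crabp2* (3.90 FPKM), *Aldh1a2* (2.08 FPKM), *Rdh10* (1.58 FPKM), *Cyp26a1* (1.02 FPKM), *Dhrs3* (0.253 FPKM) and *Rarb* (0.0131 FPKM). No neighbours in this order overlapped over the 3 WT libraries. *Rarg*, *Rara* and both binding proteins were thus above the enzymes, while *Rarb* was below them, and 10.7% of all tested genes had a higher level per length than *Rarg*, against 62.2% for *Aldh1a2* and 91.7% for *Dhrs3*.

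In *Bdh2*-knockout ASCs *Rarg* led at 49.3 ± 0.800 FPKM (SD, n = 3), followed by *Crabp1* at 13.8 ± 1.12 and *Rara* at 13.4 ± 0.556 FPKM, whose libraries overlapped. *Crabp2* was at 3.13 FPKM. *Rdh10* (2.13 FPKM), *Aldh1a2* (2.12 FPKM) and *Cyp26a1* (1.88 FPKM) followed, with *Rdh10* overlapping *Aldh1a2* and *Aldh1a2* overlapping *Cyp26a1*. *Dhrs3* (0.207 FPKM) and *Rarb* (0.0339 FPKM) were again last. The synthesis and breakdown enzymes, which were apart in WT ASCs, thus had means between 1.88 and 2.13 FPKM in the knockout.

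A further 84 genes of retinoid supply, metabolism, binding, signalling and response were counted from a list chosen by known role, of which 83 were in the table and 65 were tested. A gene could be in more than 1 group of this list. In *Bdh2*-knockout ASCs 20 were higher, 11 were lower and 34 did not pass. The share called was 47.7%, beside 41.7% over all tested genes, and the median log2 fold change was 0.12. With library totals in place of TMM 15 were higher and 13 lower, and in DESeq2 15 were higher and 6 lower. Without knockout replicate 1 the number called was 20, of which 15 were higher and 5 lower.

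Among the genes of supply and storage, 2 of 7 tested were higher and 4 were lower, beside 21.0% higher and 20.8% lower over all tested genes. *Stra6*, the membrane receptor that takes up retinol, had 5, 7 and 8 counts in WT and 24, 22 and 29 counts in knockout libraries (log2 fold change 1.62, SE 0.35, adjusted p = 0.00250 by edgeR). *Lrp2*, the endocytic receptor megalin that takes up retinol with its carrier in absorptive epithelia, rose from 8.85 ± 2.25 to 32.9 ± 4.89 CPM (SD, n = 3; log2 fold change 1.90). *Scarb1*, a scavenger receptor for lipoproteins and carotenoids, fell from 70.8 ± 2.11 to 48.1 ± 3.51 CPM (log2 fold change -0.56). *Stra6* and *Lrp2* were apart between genotypes in the same direction as the sum of primitive endoderm markers, whose part in these values was not tested.

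*Ttr*, which carries the retinol binding protein in plasma, was at 24.2, 16.0 and 2.06 CPM in WT and at 1.63, 6.45 and 0.458 CPM in knockout replicates 1 to 3. Its log2 fold change was -2.25 (adjusted p = 0.0221 by edgeR), and the genotypes overlapped. *Adh1* (-1.72) and *Aldh1a1* (-2.11), both dehydrogenases of retinoid metabolism, passed in the same way with overlapping genotypes. All 3, and *Rbp4*, which encodes the plasma retinol carrier and was named after its values were seen (-1.24), were highest in WT replicates 1 and 2 and knockout replicate 2, the libraries with the largest sum of hepatocyte markers. None of the 4 passed in DESeq2, in limma-voom or when WT replicate 1, WT replicate 2, knockout replicate 1 or knockout replicate 3 was left out. With 1 library left out the log2 fold change ran from -3.67 to -1.61 for *Ttr*, from -2.92 to -0.97 for *Adh1*, from -4.06 to -1.19 for *Aldh1a1* and from -1.84 to -0.60 for *Rbp4*. The part of the hepatocyte transcripts in these 4 values was not tested.

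For the members called, WT replicate 3, with a hepatocyte sum of 27.8 CPM that lay between those of knockout replicates 1 and 2, had 6.997 CPM of *Rdh10*, 2.10 CPM of *Cyp26a1*, 19.2 CPM of *Crabp1* and 142 CPM of *Rarg*, each on the WT side of the gap between genotypes. This is 1 library, and the part of the hepatocyte transcripts in the members' values was not tested.

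Among the retinol and retinaldehyde dehydrogenases 1 of 16 tested was higher and 5 were lower, or 37.5% called beside 41.7% over all tested genes. The number lower was 3 in DESeq2 and in limma-voom. With 1 library left out it ran from 2 (without knockout replicate 3) to 6 (without WT replicate 3). *Dhrs4*, a peroxisomal carbonyl reductase, rose from 25.0 ± 0.0987 to 37.7 ± 1.72 CPM (SD, n = 3; log2 fold change 0.59), and *Dhrs7* fell from 18.7 ± 2.92 to 12.2 ± 2.07 CPM (log2 fold change -0.61). The list held 4 further P450 genes beside *Cyp26a1*, of which 2 were tested and both were higher, beside 21.0% of all tested genes. These were *Cyp2s1* (log2 fold change 0.56) and *Cyp1b1* (0.51). *Cyp26b1* (18 counts in WT and 34 in knockout libraries together) and *Cyp26c1* (3 and 11) were too low for the test. Whether the products of these genes break down retinoic acid in ASCs was not measured. Of the other binding proteins 1 of 3 tested was higher and none was lower (33.3% called, beside the same 41.7%). None passed with library totals, in DESeq2, or without WT replicate 2, WT replicate 3 or knockout replicate 1.

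Of the 8 other receptors, the RXR genes and further nuclear receptors, 2 were higher and none was lower (25% called, beside 41.7% over all tested genes), which became none higher and 1 lower with library totals. None passed in DESeq2, with the replicate block, or without WT replicate 2, knockout replicate 1 or knockout replicate 2. *Rxrg*, an RXR gene at 0.837 ± 0.173 CPM in WT and 1.37 ± 0.0496 CPM in knockout ASCs (SD, n = 3), rose by 0.71 on the log2 scale (adjusted p = 0.0432 by edgeR), a call that was lost in 9 of 12 alternatives. Of 12 tested coregulators 6 were higher and none was lower, beside 21.0% higher and 20.8% lower over all tested genes, and with library totals 6 were higher and 1 was lower. *Crebbp*, a histone acetyltransferase and coactivator, rose from 43.8 ± 1.68 to 73.9 ± 2.43 CPM (log2 fold change 0.75), and *Ncoa3*, a steroid receptor coactivator, rose from 156 ± 11.5 to 231 ± 5.82 CPM (0.57). Both kept their call in all 13 alternatives. The other coregulators that were higher, named after their values were seen, were *Asxl1* (0.47), *Ep300* (0.27), *Nrip1* (0.25) and *Ncor1* (0.18). *Nrip1* and *Ncor1* encode corepressors, so the higher coregulators were not coactivators only.

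Of 22 tested response genes, described in other systems as responding to retinoic acid, 8 were higher, 3 were lower and 11 did not pass. This was 50% called, beside 41.7% over all tested genes. In limma-voom 8 were again higher and 3 lower, and in DESeq2 6 of 24 tested were higher and 2 lower. Without WT replicate 2, 5 were higher and 3 lower, and without knockout replicate 1, 6 of 23 tested were higher and 1 lower. *Ret*, a receptor tyrosine kinase, rose from 1.22 ± 0.0588 to 3.12 ± 0.294 CPM (log2 fold change 1.35). *Tgm2*, the tissue transglutaminase, fell from 1.90 ± 0.271 to 1.02 ± 0.208 CPM (log2 fold change -0.89), with an adjusted p of 0.0545 by edgeR when knockout replicate 1 was left out.

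**Figure D4:**
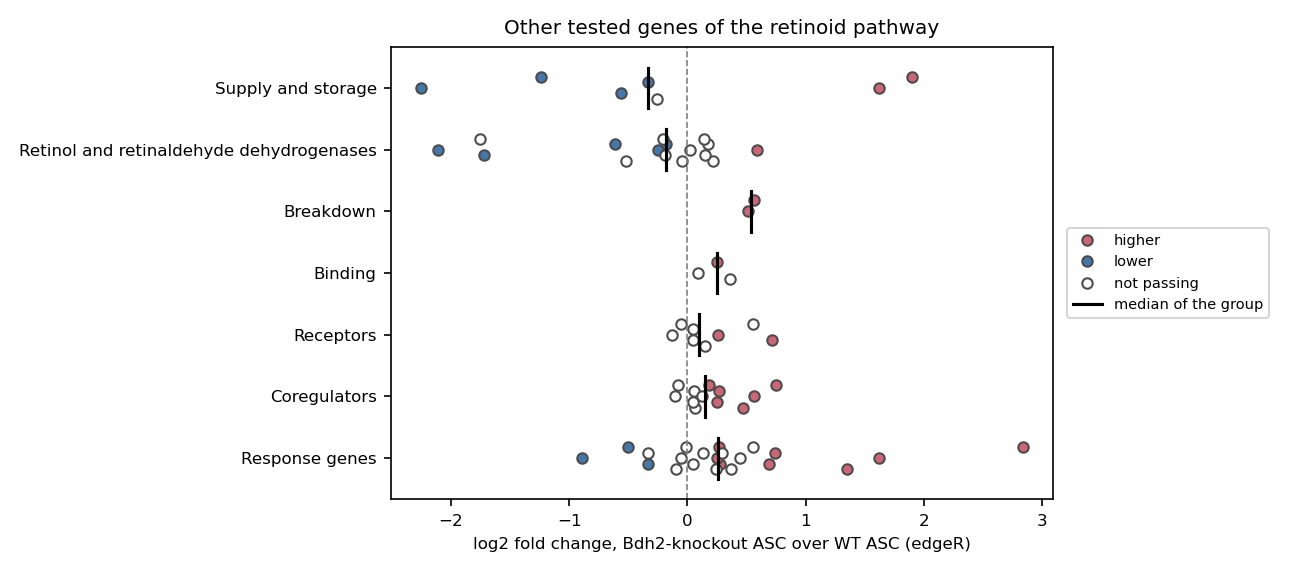
log2 fold change (knockout over WT, x axis) of the tested genes of the wider retinoid list by group (y axis); red, higher, blue, lower, white, not passing, black lines, group medians, and points are spread vertically for sight only. Genes of supply lie on both sides, and the 6 coregulators that passed are all to the right (with library totals 1 coregulator passes as lower).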

How the data were processed

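Libraries of 3 WT and 3 *Bdh2*-knockout ASC samples were made from total RNA with a TruSeq RNA kit, per the labels. Per the study's methods, the authors trimmed adaptors, dropped reads of low quality, aligned with HISAT2 (2.0.5 in the submitters' processing notes) to GRCm38 and counted reads per gene with FeatureCounts. The deposited values are raw counts per gene, with a gene length column. Strand setting, annotation release and treatment of reads with several matches are not given in the sources used here.

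Counts of 54715 genes in 6 libraries were tested with edgeR 4.0.16 (R 4.3.3): filterByExpr, TMM scaling, glmQLFit and glmQLFTest on genotype, with Benjamini-Hochberg adjustment over 16758 genes and a threshold of 0.05. The SE is the absolute log2 fold change divided by the square root of F. CPM were computed on TMM-scaled totals and FPKM as CPM per kilobase of the listed length. Ratios within libraries were compared by two-sided exact permutation tests. Alternatives were DESeq2 1.42.0, its size factors, library totals, limma-voom 3.58.1, no count filter, a mean count of at least 50, a replicate block, and leaving out each library. The steps were tested on simulated data.

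The members and lists were chosen with earlier results of these data known. Named genes of the wider list were, per group, the up to 4 with the smallest p among those that passed with an absolute log2 fold change of at least 0.5, and a gene that this rule names is not reported here. The genes most like *Cyp26a1* were ranked because it had the largest absolute change of the members. Positions are those of the count table, and exon overlap was read from GENCODE M21. All 9 members were found by symbol. Promoters are from RefSeq. A comparison of protein sequences was not run, and protein sequences were not used here.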

Additional observations from a re-analysis of the deposited data

How the results depend on the processing

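*Rdh10*, *Cyp26a1*, *Crabp1*, *Rarg* and *Bdh2* kept their direction and passed the threshold in all 13 alternatives, with log2 fold changes of 0.36 to 0.48, 0.66 to 1.00, -0.83 to -0.71 and 0.58 to 0.73 for the members. *Crabp2* passed in none (-0.41 to -0.18). *Rara* passed with library totals (-0.16), under which 5 members were called and the calls over all genes were 2734 higher and 4440 lower in place of 3518 and 3478. *Aldh1a2* changed sign with library totals (-0.032) and when libraries were left out (-0.084 to 0.12). *Dhrs3* changed sign with limma-voom (0.17) and when libraries were left out (-0.76 to 0.24), and had no value at a mean count of at least 50. The pathway list had 20 to 31 calls when libraries were left out. The log2 ratio of *Dhrs3* to *Rdh10* differed by -1.29 to 0.24 between genotypes when libraries were left out. The causes were not tested.

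Replicate numbers are shared between the genotypes, but same-numbered libraries deviated together with correlations of -0.16, 0.00454 and 0.18 only, so they share a number and no shown pairing. With the replicate block 4 members were called (3 higher, 1 lower), as without it, and 29 genes of the pathway list. Over all genes 6452 were called with the block.

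*Rarb* had 0 to 5 counts per library, at which a change was not detectable. *Dhrs3* had 4 to 23 counts, its WT libraries spread widely (SE 0.52), and without WT replicate 3 its log2 fold change was -0.76 (adjusted p = 0.119 by edgeR).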

Other observations

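Over the mouse genome the RefSeq promoters of 31 of 27025 genes held a DR5 repeat. Of these 31 genes 18 were in the count table and 4 were tested. The test called 3 of the 4, beside 41.7% of all tested genes. *Cyp26a1* and *Syndig1*, a synaptic membrane protein gene, were higher in *Bdh2*-knockout ASCs. *Syndig1* rose from 3.24 ± 0.366 to 4.94 ± 0.490 CPM (SD, n = 3; log2 fold change 0.61, adjusted p = 0.00628 by edgeR). *Blvrb*, a biliverdin reductase gene, fell from 42.0 ± 1.24 to 34.7 ± 1.31 CPM (log2 fold change -0.28, adjusted p = 0.00133 by edgeR), and *Cfap45* did not pass (log2 fold change -0.054, adjusted p = 0.857 by edgeR). The names of these 4 genes follow from the repeat and not from their values.

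The nearest tested genes on both sides of the members numbered 18. Of these 3 were higher, 5 were lower and 10 did not pass, beside 21.0% higher and 20.8% lower over all tested genes. The genes on both sides of *Cyp26a1* were higher, as it was: *Exoc6* (log2 fold change 0.37, 14.6 kb away) and *Myof* (0.29, 198 kb away). Those on both sides of *Rdh10*, which was higher, were lower: *Rpl7* (-0.23) and *Stau2* (-0.27). The neighbours of *Rarg* did not pass. A link between members and neighbours was not tested.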
